A study of Mus musculus with 12 samples.

Results

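The genes described here are 10 mouse genes of inflammasome, Toll-like receptor and necroptosis signalling, chosen by symbol: Nlrp3, Pycard, Casp1, Casp4, Gsdmd, Tlr2, Tlr4, Myd88, Ripk3 and Mlkl. All 10 were found among the 23183 gene symbols of the data, and 9 of them were among the 13243 genes tested, while Nlrp3 did not reach the minimum of 1 FPKM in 3 libraries. RNA-seq was performed on kidney cortex of male C57BL/6 mice (C57BL/6N in the study's methods) aged 6 to 7 weeks, 7 days after unilateral ureteral obstruction (UUO). This surgery ties off the ureter on only 1 side. The obstructed UUO kidney and the unobstructed contralateral (CL) kidney of wild-type (WT) and Acot12-/- mice gave 4 groups of 3 libraries: WT CL, WT UUO, Acot12-/- CL and Acot12-/- UUO. All 12 libraries came from mice that had undergone the surgery, so that the CL kidney is a control within an operated animal and not a kidney of an unoperated mouse. The Acot12-/- mice carry a germline mutation of the acyl-CoA thioesterase Acot12 in every tissue, made with an RNA-guided nuclease, and the loss is therefore not restricted to the kidney.

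Toll-like receptors recognise microbial products and molecules released by damaged cells, and most of them signal through the adaptor Myd88 to NF-kappaB, which drives transcription of inflammatory genes. Inflammasomes are cytosolic complexes in which a sensor such as Nlrp3 recruits the adaptor Pycard (also called ASC) and the protease Casp1, which matures the cytokines encoded by Il1b and Il18. Casp1 also cleaves Gsdmd into a fragment that forms pores in the membrane, and Casp4, the mouse lipopolysaccharide sensor, does so too. In necroptosis, the kinase Ripk3 phosphorylates Mlkl, which then disrupts the plasma membrane. These routes are known from macrophages and other leukocytes and, in part, from injured tubular cells of the kidney.

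Because these genes are often described as NF-kappaB or interferon targets, their promoters were searched for matches to the kappaB motif and 4 other motifs. RefSeq (GRCm38.p6) promoter windows of 300 bases, from 250 bases before to 50 bases after a start site, were given for 8 of the 10 genes, all but Gsdmd and Tlr4. A kappaB match on either strand lay in a window of Tlr2, Casp4 and Nlrp3, against 4.51% of the 32851 promoters searched. This share and those of the other motifs are of single windows, whereas a gene with several, such as Casp4 and Nlrp3, counts when any of them holds a match. The stretches around these matches that lie in no annotated exon are given 5′ to 3′ on the strand of the gene, with the matches in capitals. They are shown because Tlr2 and Casp4 had the largest differences between UUO and CL kidneys of the group, and because Nlrp3 is its sensor.
Tlr2, chr3:83841768-83841858, minus strand: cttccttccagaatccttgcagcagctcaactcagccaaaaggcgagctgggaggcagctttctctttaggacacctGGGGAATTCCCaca
Casp4, chr9:5308599-5308827, plus strand: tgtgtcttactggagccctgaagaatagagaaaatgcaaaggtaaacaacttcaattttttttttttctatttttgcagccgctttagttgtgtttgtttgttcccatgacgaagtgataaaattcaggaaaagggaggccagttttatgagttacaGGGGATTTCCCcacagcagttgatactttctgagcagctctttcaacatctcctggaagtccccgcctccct
Nlrp3, chr11:59541319-59541567, plus strand: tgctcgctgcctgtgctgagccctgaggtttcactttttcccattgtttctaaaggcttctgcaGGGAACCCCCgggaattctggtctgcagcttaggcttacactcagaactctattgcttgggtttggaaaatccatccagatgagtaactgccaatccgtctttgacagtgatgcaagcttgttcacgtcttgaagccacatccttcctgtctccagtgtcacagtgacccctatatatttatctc

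The Tlr2 and Casp4 capitals each hold overlapping kappaB matches, which begin 173 bases before the Tlr2 start site and 93 bases before the upstream of the Casp4 start sites. Another Tlr2 match lies across the start site and is not shown. The Nlrp3 match, 186 bases before the more distal of its start sites, was found on the opposite strand. An interferon response match (GAAA, any 2 bases and GAAA again, searched on both strands) was found in the Myd88 promoter and in 3.44% of all promoters, and the match is in capitals. It is shown because Myd88 was the only one of the 8 genes with it.
Myd88, chr9:119340042-119340268, minus strand: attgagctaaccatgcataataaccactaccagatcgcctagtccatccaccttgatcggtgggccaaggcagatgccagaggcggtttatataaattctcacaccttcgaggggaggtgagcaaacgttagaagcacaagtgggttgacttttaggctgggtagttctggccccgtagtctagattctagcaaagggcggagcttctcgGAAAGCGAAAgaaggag

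The interferon response match overlaps a STAT match (TTCNNNGAA), which was present in 8.30% of all promoters and in the Myd88 window only. PU.1 matches (GAGGAAG) were found for Nlrp3 and Pycard and in 13.6% of all promoters, and AP-1 matches (TGANTCA) were found in 7.81% of all promoters and in none of the 8 genes. These matches are letters in a window and no binding was measured.

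The library size behind the FPKM values was estimated at 12480000 to 16240000 for CL kidneys and at 18550000 to 22950000 for UUO kidneys. The values were already closely scaled to each other, with median-ratio size factors of 0.9765 to 1.023. These sizes may therefore hold a scaling between libraries and are not taken as the fragments sequenced. The labelled genotype was checked with Acot12, which was at 52.7 to 78.1 FPKM (fragments counted for each kilobase of a transcript, relative to library size) in WT CL and 6.80 to 9.14 FPKM in Acot12-/- CL libraries. The difference was -2.88 on the log2(FPKM + 1) scale (SE 0.28, limma adjusted p = 0.000969, n = 3 per group). Acot12 was at 9.98 to 21.2 FPKM in WT UUO and 1.80 to 3.86 FPKM in Acot12-/- UUO libraries, so that reads of the gene were still counted in the mutant. In a principal component analysis, UUO and CL libraries were separated by the axis with 74.2% of the variance. The next axis, with 9.5%, set replicate 2 of Acot12-/- CL apart from replicates 1 and 3 of its group. Proximal tubule markers summed to 2250 to 2532 FPKM in WT CL and 2653 to 4054 FPKM in Acot12-/- CL libraries, with all 9 markers detected in every library. In UUO libraries they summed to 489 to 792 FPKM in WT and 363 to 968 FPKM in Acot12-/- kidneys.

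In GRCm38 the genes lie on 8 chromosomes. Chromosome 9 holds the neighbours Casp1 (chr9:5298517-5307265, plus strand) and Casp4 (chr9:5308828-5336783, plus strand) and, at a distance, Myd88. The other inflammasome genes are Nlrp3 (chr11:59541568-59566956, plus strand), Pycard (chr7:127989708-127993867, minus strand) and Gsdmd (chr15:75862327-75867408, plus strand). The receptors are Tlr2 (chr3:83836272-83841767, minus strand) and Tlr4 (chr4:66827584-66930284, plus strand), and the necroptosis genes are Ripk3 (chr14:55784995-55788865, minus strand) and Mlkl (chr8:111311797-111338177, minus strand). The 10 genes differed widely in level, and FPKM, being per transcript length, allows them to be set side by side. In WT CL kidneys Pycard was highest, at 13.9 ± 2.44 FPKM (SD, n = 3), followed by Myd88 at 10.2 ± 1.07 FPKM. All 3 Pycard values lay above all 3 Myd88 values by a narrow margin. Gsdmd at 3.20 ± 0.391 FPKM and Casp4 at 2.99 ± 0.325 FPKM overlapped each other, and both lay above Mlkl at 1.48 ± 0.239 FPKM. Mlkl, Casp1 (1.39 ± 0.467 FPKM), Tlr2 (1.15 ± 0.192 FPKM), Ripk3 (1.07 ± 0.384 FPKM) and Tlr4 (0.872 ± 0.212 FPKM) each overlapped the next in the order. Nlrp3 lay below them all at 0.106 to 0.209 FPKM. In WT UUO kidneys Myd88 was highest, at 21.5 ± 0.359 FPKM, then Pycard at 17.2 ± 0.771 FPKM and Casp4 at 13.7 ± 2.32 FPKM. Tlr2, at 11.6 ± 2.38 FPKM, stood in the fourth place and not in the seventh, and overlapped Gsdmd at 11.5 ± 0.689 FPKM. Nlrp3 stayed lowest in all 4 groups.

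**Figure D1:**
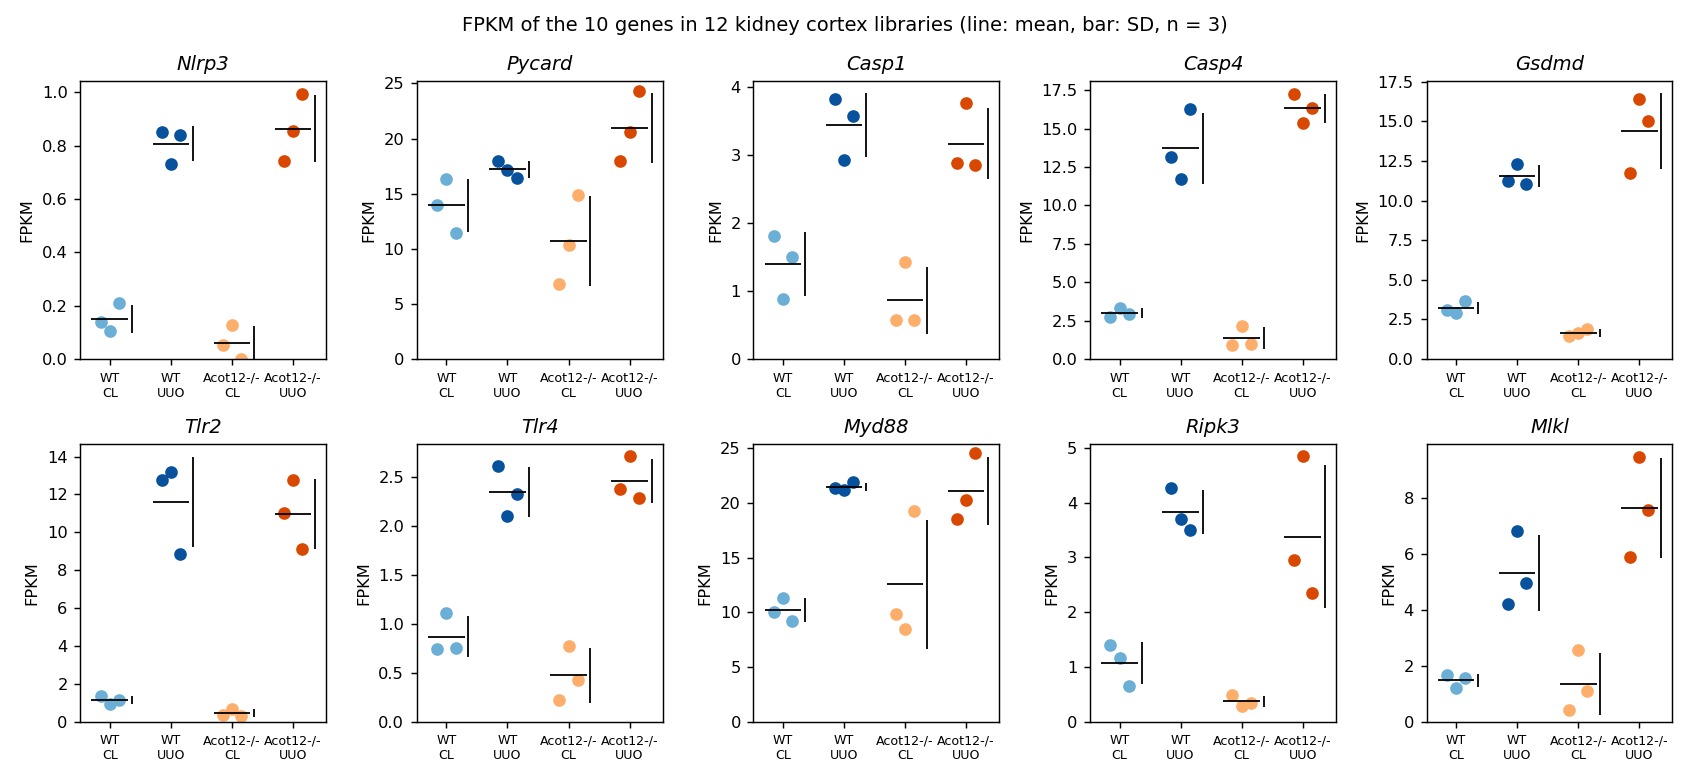
FPKM (y axes, from 0, each with its own scale) of the 10 genes in the 4 groups (x axes), with 1 point per library, a line at the mean and a bar for the SD (n = 3). The UUO libraries lie above the CL libraries of the same genotype for every gene except Myd88 in Acot12-/- kidneys, where 1 CL library, at 19.3 FPKM, lies above the lowest UUO library, at 18.5 FPKM.

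The comparison of UUO with CL kidneys asks how obstruction changes these transcripts in each genotype. In WT mice 8 of the 10 genes were called higher in UUO kidneys (limma, adjusted p under 0.05 over all genes tested), Pycard was not called, and Nlrp3 was not tested. Of all genes tested, 23.6% were called higher. For Acot12-/- mice the count was 9 of 10 called higher, all but the untested Nlrp3, against 26.6% of all genes tested. Every UUO library lay above every CL library for all 10 genes in WT mice, against 35.5% of the genes tested, and for 9 of 10 in Acot12-/- mice, all but Myd88, against 27.8%. The median difference of the 9 tested genes was 1.24 on the log2(FPKM + 1) scale in WT and 1.63 in Acot12-/- mice, beside medians of 0.01 and -0.01 over all genes tested. Tlr2, Tlr4 and Ripk3 reached 1 FPKM in at most 2 of the 6 CL libraries but in all 6 UUO libraries, so that they entered the test through the UUO kidneys.

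**Figure D2:**
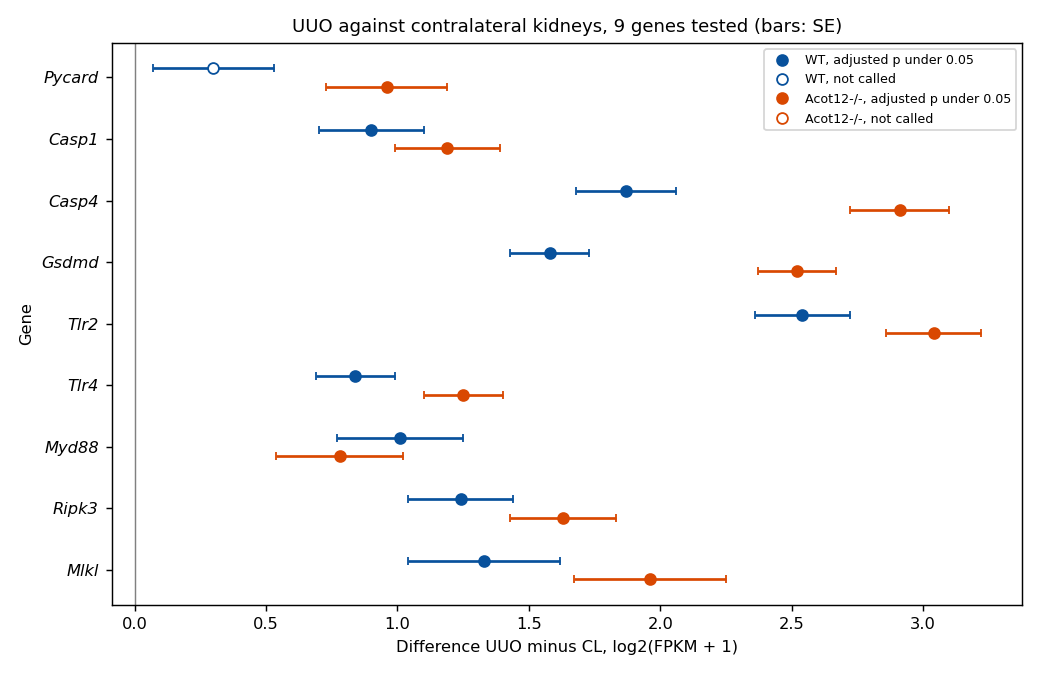
Difference between UUO and CL kidneys on the log2(FPKM + 1) scale (x axis) for the 9 genes tested (y axis), in WT (blue) and Acot12-/- mice (orange), with bars for the SE; filled points were called. All points but Pycard in WT are filled, and the largest differences are those of Tlr2, at 2.54 in WT and 3.04 in Acot12-/- mice.

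Among the receptors, Tlr2, which recognises bacterial lipoproteins, showed the largest change of the group. Tlr2 was at 1.34, 0.954 and 1.15 FPKM in the 3 WT CL libraries and at 12.7, 13.2 and 8.87 FPKM in the 3 WT UUO libraries. It was at 0.331, 0.688 and 0.328 FPKM in Acot12-/- CL and at 11.04, 12.8 and 9.10 FPKM in Acot12-/- UUO libraries. The groups were widely separated in both genotypes, with the lowest UUO value several times the highest CL value. The difference was 2.54 on the log2(FPKM + 1) scale in WT (SE 0.18, limma adjusted p = 2.1e-06) and 3.04 in Acot12-/- mice (SE 0.18, limma adjusted p = 3.26e-07), and the ratios of mean FPKM were 10.1 and 24.4.

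Tlr4, the receptor of lipopolysaccharide, was at 0.743, 1.12 and 0.756 FPKM in WT CL and 2.62, 2.11 and 2.33 FPKM in WT UUO libraries. Tlr4 was at 0.222, 0.773 and 0.425 FPKM in Acot12-/- CL and 2.38, 2.72 and 2.29 FPKM in Acot12-/- UUO libraries. The UUO values of Tlr4 were alike in both genotypes and lay above all CL values. The difference was 0.84 on the log2(FPKM + 1) scale in WT (SE 0.15, limma adjusted p = 0.000763) and 1.25 in Acot12-/- mice (SE 0.15, limma adjusted p = 3.45e-05), the latter being 0.74 with quantile normalisation.

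Myd88, the adaptor shared by most Toll-like receptors, was more abundant than either receptor, though Tlr2 came nearer to it in UUO than in CL kidneys. Myd88 was at 10.03, 11.4 and 9.24 FPKM in WT CL and 21.3, 21.2 and 21.9 FPKM in WT UUO libraries. In Acot12-/- mice Myd88 was at 9.85, 8.52 and 19.3 FPKM in CL and 18.5, 20.3 and 24.5 FPKM in UUO libraries. Replicate 3 of Acot12-/- CL thus reached the level of the UUO kidneys, and Myd88 was the only gene of the group whose UUO and CL libraries overlapped in a genotype. The difference was 1.01 on the log2(FPKM + 1) scale in WT (SE 0.24, limma adjusted p = 0.0042) and 0.78 in Acot12-/- mice (SE 0.24, limma adjusted p = 0.0147). The call of Myd88 in Acot12-/- mice was lost in a fit of only those groups (adjusted p = 0.0694), without replicate 1 of Acot12-/- CL (0.0563) and without replicate 3 of Acot12-/- UUO (0.0592). Myd88 (GRCm38, chr9:119335934-119341411) overlaps Acaa1a over 1736 bases on the opposite strand. The libraries were directional, but whether strand was used in counting is not given in the sources used here. Acaa1a was at 104, 34.2 and 92.8 FPKM in Acot12-/- CL and 49.2 to 71.7 FPKM in WT CL libraries, and its part in the Myd88 values was not tested. Slc22a14 overlaps Myd88 on the same strand over 5478 bases, the whole of its span, and was at 0.022 to 0.228 FPKM in all libraries.

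Of the inflammasome genes, the sensor Nlrp3 was scarce. It was at 0.138, 0.106 and 0.209 FPKM in WT CL and 0.851, 0.732 and 0.840 FPKM in WT UUO libraries. Nlrp3 was at 0.053 and 0.129 FPKM in 2 Acot12-/- CL libraries and listed at 0 in the third. It was at 0.744, 0.854 and 0.992 FPKM in Acot12-/- UUO libraries. Nlrp3 was thus below 1 FPKM in all 12 libraries, yet no UUO value came near a CL value. With the library sizes estimated above and the longest of its 3 transcripts, these levels correspond to 0 to 11 fragments per CL library and 59 to 78 per UUO library. As those sizes may hold a scaling between libraries, these fragment numbers are rough. Paired by replicate number within genotype, Nlrp3 was higher in UUO than in CL kidneys in 6 of 6 pairs. The mean difference was 0.73 ± 0.14 on the log2(FPKM + 1) scale (SD, n = 6 pairs, exact two-sided sign-flip permutation test, p = 0.0312, the smallest that 6 pairs allow). This test was chosen after Nlrp3 had been seen to fall below the minimum. As every UUO value lay above every CL value, any pairing gives this p, which adds nothing to that separation. With no minimum, limma called Nlrp3 higher in WT (0.65, SE 0.06, adjusted p = 6.99e-05) and in Acot12-/- mice (0.81, SE 0.06, adjusted p = 1.06e-05).

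Pycard, the adaptor that links sensors to Casp1, was the most abundant gene of the group in WT CL kidneys and had the smallest difference of the 9 tested genes in WT mice. It was at 14.0, 16.4 and 11.5 FPKM in WT CL and 18.0, 17.2 and 16.5 FPKM in WT UUO libraries, groups that did not overlap but nearly touched. Pycard was at 6.80, 10.3 and 14.9 FPKM in Acot12-/- CL and 18.0, 20.6 and 24.3 FPKM in Acot12-/- UUO libraries. The difference of 0.30 on the log2(FPKM + 1) scale in WT (SE 0.23, 95% interval -0.20 to 0.80, limma adjusted p = 0.305) was not called, and that of 0.96 in Acot12-/- mice was (SE 0.23, limma adjusted p = 0.0037). The difference between these changes was itself not called (0.66, SE 0.32, limma adjusted p = 0.519). With libraries scaled to equal totals, the Pycard difference in WT mice was 0.99 and was called (limma adjusted p = 0.00127). The median of all genes was at 0.62 there.

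Casp1, the protease of the canonical inflammasome, was at 1.80, 0.886 and 1.49 FPKM in WT CL and 3.82, 2.92 and 3.57 FPKM in WT UUO libraries. Casp1 was at 0.573, 1.43 and 0.577 FPKM in Acot12-/- CL and 2.88, 3.76 and 2.84 FPKM in Acot12-/- UUO libraries. All UUO values of Casp1 exceeded all CL values, with differences of 0.90 on the log2(FPKM + 1) scale in WT (SE 0.20, limma adjusted p = 0.00298) and 1.19 in Acot12-/- mice (SE 0.20, limma adjusted p = 0.000359), the latter being 0.73 with quantile normalisation.

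Casp4, the lipopolysaccharide-binding caspase that lies beside Casp1 on chromosome 9, changed more than Casp1 did. It was at 2.71, 3.35 and 2.92 FPKM in WT CL and 13.2, 11.7 and 16.3 FPKM in WT UUO libraries. In Acot12-/- mice Casp4 was at 0.937, 2.18 and 0.967 FPKM in CL and 17.3, 15.4 and 16.3 FPKM in UUO libraries. The UUO groups of Casp4 overlapped each other, whereas every Acot12-/- CL value lay below every WT CL value. The difference was 1.87 on the log2(FPKM + 1) scale in WT (SE 0.19, limma adjusted p = 2.35e-05) and 2.91 in Acot12-/- mice (SE 0.19, limma adjusted p = 6.16e-07). Casp1 and Casp4 are related genes, and how reads matching both were assigned is not given in the sources used here.

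Gsdmd, the pore-forming substrate of both caspases, had replicates close to each other in the CL groups. It was at 3.09, 2.88 and 3.64 FPKM in WT CL and 11.3, 12.3 and 11.05 FPKM in WT UUO libraries. In Acot12-/- mice Gsdmd was at 1.43, 1.64 and 1.91 FPKM in CL and 11.7, 16.4 and 15.01 FPKM in UUO libraries. Every Acot12-/- CL value of Gsdmd lay below every WT CL value, and the UUO values lay far above both. The difference was 1.58 on the log2(FPKM + 1) scale in WT (SE 0.15, limma adjusted p = 1.31e-05) and 2.52 in Acot12-/- mice (SE 0.15, limma adjusted p = 3.12e-07).

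Of the necroptosis genes, the kinase Ripk3 was at 1.40, 1.16 and 0.647 FPKM in WT CL and 4.27, 3.70 and 3.49 FPKM in WT UUO libraries. In Acot12-/- mice Ripk3 was at 0.49, 0.293 and 0.339 FPKM in CL and 2.95, 4.85 and 2.35 FPKM in UUO libraries. Ripk3 was thus lower in all 3 Acot12-/- CL libraries than in any WT CL library, while the UUO groups overlapped. The difference was 1.24 on the log2(FPKM + 1) scale in WT (SE 0.20, limma adjusted p = 0.000396) and 1.63 in Acot12-/- mice (SE 0.20, limma adjusted p = 3.79e-05).

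Mlkl, the membrane-disrupting effector of necroptosis, was at 1.67, 1.21 and 1.55 FPKM in WT CL and 4.19, 6.82 and 4.93 FPKM in WT UUO libraries. Mlkl was at 0.409, 2.55 and 1.09 FPKM in Acot12-/- CL and 5.88, 9.46 and 7.57 FPKM in Acot12-/- UUO libraries. The Acot12-/- CL values of Mlkl were scattered, with replicate 2 above and the others below all WT CL values, and both UUO groups lay above every CL value. The difference was 1.33 on the log2(FPKM + 1) scale in WT (SE 0.29, limma adjusted p = 0.00252) and 1.96 in Acot12-/- mice (SE 0.29, limma adjusted p = 0.000132).

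Markers of macrophages, lymphocytes and fibroblasts were higher in UUO kidneys too, and those of neutrophils in Acot12-/- mice. Of 13 macrophage markers, 12 were called higher in UUO kidneys of WT and 13 in those of Acot12-/- mice. None of the 13 was at 0 in any library, and their summed level was 192 to 216 FPKM in WT CL, 756 to 905 FPKM in WT UUO, 61.3 to 137 FPKM in Acot12-/- CL and 815 to 1102 FPKM in Acot12-/- UUO libraries. The 9 T and B lymphocyte markers summed to 10.9 to 15.4, 30.4 to 33.9, 2.98 to 5.34 and 17.5 to 24.9 FPKM in the same order of groups, with up to 3 at 0 in a library. The 9 neutrophil markers, of which up to 4 were at 0 in a library, summed to 17.1 to 69.4, 24.8 to 76.9, 2.58 to 25.2 and 45.3 to 169 FPKM. The 6 fibroblast markers summed to 100 to 118, 220 to 297, 28.5 to 76.9 and 217 to 312 FPKM. Of the markers tested, 4 of 6 lymphocyte, 1 of 4 neutrophil and 3 of 6 fibroblast markers were called higher in UUO kidneys of WT mice, and 5 of 6, 4 of 4 and 6 of 6 in those of Acot12-/- mice. The part of these cells in the levels of the 10 genes was not tested, and in whole cortex fewer cells of a type and less RNA per cell cannot be told apart.

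**Figure D3:**
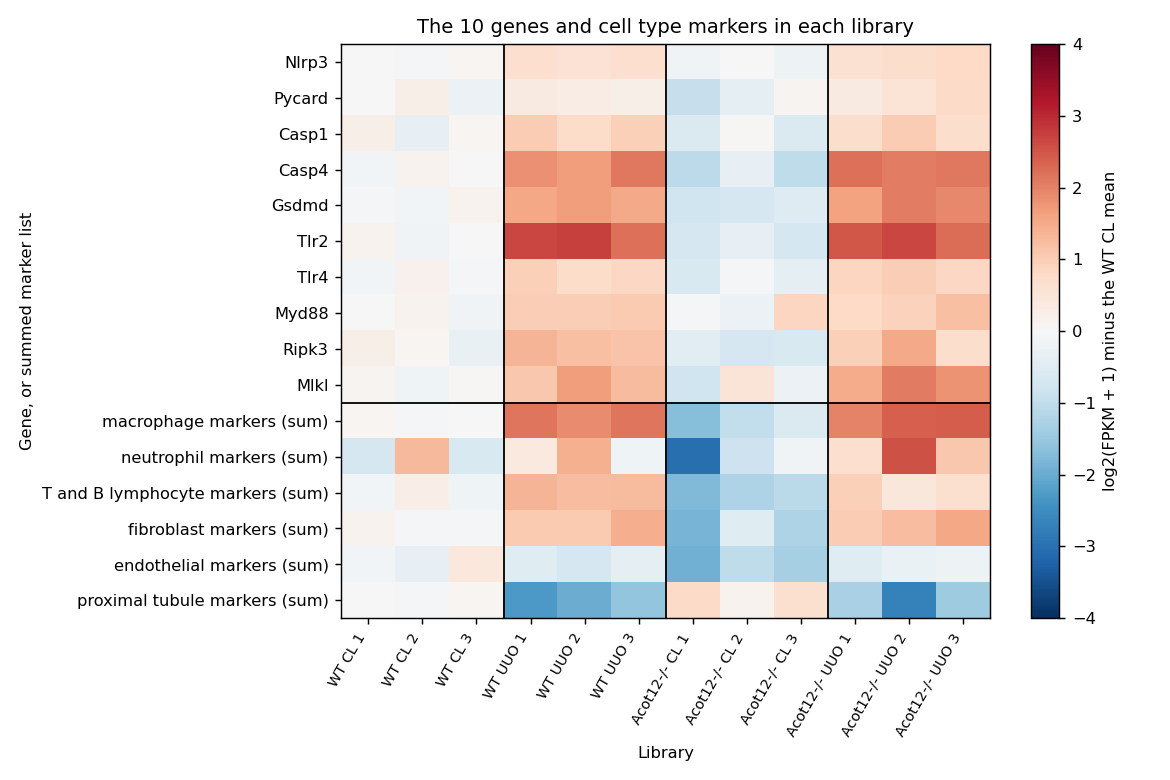
Difference of each library from the WT CL mean on the log2(FPKM + 1) scale (colour, red above and blue below) for the 10 genes and, below the black line, for the summed FPKM of 6 marker lists (y axis), in the 12 libraries (x axis). The genes and the macrophage row are red in all UUO columns, the proximal tubule row is blue there, and most of the genes are pale blue in Acot12-/- CL columns, where the macrophage, lymphocyte, fibroblast and endothelial rows are blue too.

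The comparison of genotypes asks whether loss of Acot12 changes these transcripts within obstructed or within contralateral kidneys. In UUO kidneys 0 of the 9 tested genes were called between Acot12-/- and WT mice (limma, adjusted p = 1.0 for each, and 0 of 9 at an unadjusted p under 0.05), where 0.0151% of all genes were called. The libraries of the genotypes overlapped for all 10 genes. The largest difference was that of Mlkl, 0.45 on the log2(FPKM + 1) scale (SE 0.29, 95% interval -0.17 to 1.08), with means of 7.64 ± 1.79 FPKM in Acot12-/- UUO and 5.31 ± 1.35 FPKM in WT UUO kidneys. The smallest was that of Myd88, -0.03 (SE 0.24, 95% interval -0.55 to 0.48). Gsdmd had the narrowest interval, -0.03 to 0.60 around 0.28, and Tlr4, at 0.05 (95% interval -0.28 to 0.38), was at -0.08 with libraries scaled to equal totals. The median difference of the 9 genes was 0.05, beside 0.00 over all genes.

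In CL kidneys 8 of the 9 tested genes had lower values in Acot12-/- than in WT mice (7 with quantile normalisation, where Mlkl was at 0.05), and 2 were called. Casp4 was at 2.99 ± 0.325 FPKM in WT CL and 1.36 ± 0.708 FPKM in Acot12-/- CL kidneys, a difference of -0.80 on the log2(FPKM + 1) scale (SE 0.19, 95% interval -1.21 to -0.38, limma adjusted p = 0.0372). Gsdmd was at 3.20 ± 0.391 FPKM in WT CL and 1.66 ± 0.244 FPKM in Acot12-/- CL kidneys, a difference of -0.66 (SE 0.15, 95% interval -0.98 to -0.34, limma adjusted p = 0.0257). Of all genes tested, 3.36% were called lower in this comparison. The Acot12-/- CL libraries lay below all WT CL libraries for 4 of the 10 genes, Casp4, Gsdmd, Tlr2 and Ripk3, against 9.73% of the genes tested. Tlr2 (-0.57, SE 0.18, limma adjusted p = 0.0998) and Ripk3 (-0.57, SE 0.20, limma adjusted p = 0.145) were not called. The median difference of the 9 genes was -0.40, beside 0.01 over all genes. Myd88 alone had a positive difference (0.20, SE 0.24, limma adjusted p = 0.76), which was -0.14 without replicate 3 of Acot12-/- CL.

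These calls rested on the choice of libraries and of scaling, and neither gene was called with equal totals or quantile normalisation. Replicate 2 of Acot12-/- CL, the library that stood apart, was the highest of its group for 6 of the 10 genes (Nlrp3, Casp1, Casp4, Tlr2, Tlr4 and Mlkl), as it was for 41.3% of all genes tested. Without it 5 of the 9 genes were called lower in Acot12-/- CL kidneys: Casp4 (-1.03, limma adjusted p = 0.00198), Gsdmd (-0.66, 0.0130), Tlr2 (-0.69, 0.0216), Tlr4 (-0.50, 0.0264) and Casp1 (-0.59, 0.0375). None was called when any single WT CL library was left out or without replicate 1 of Acot12-/- CL, and 1 was called without replicate 3 of Acot12-/- CL or without any single UUO library other than replicate 3 of WT. The shares of all genes called in these smaller fits are not given here, so that these counts are a description only. Markers of non-epithelial cells were lower in the same kidneys, with 4 of 13 macrophage, 3 of 6 tested lymphocyte, 5 of 6 endothelial and 1 of 6 fibroblast markers called lower in Acot12-/- than in WT CL kidneys. Of 9 proximal tubule markers, 8 had a positive difference and none was called. The part of these cells in the lower values of Casp4 and Gsdmd was not tested.

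**Figure D4:**
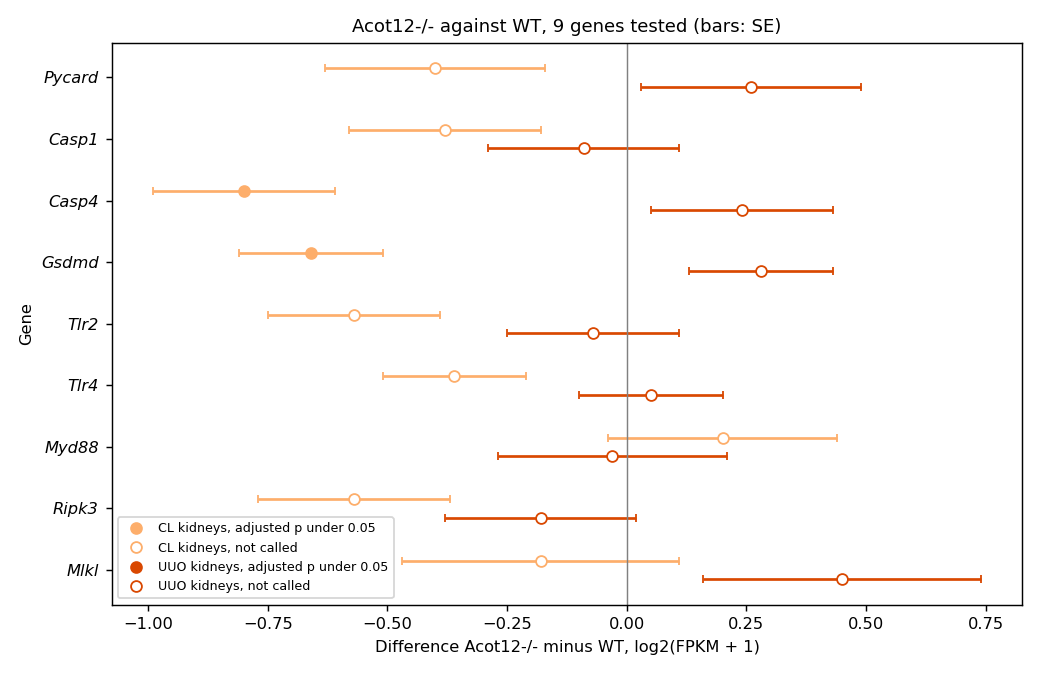
Difference between Acot12-/- and WT mice on the log2(FPKM + 1) scale (x axis) for the 9 genes tested (y axis), in CL (light orange) and UUO kidneys (dark orange), with bars for the SE; filled points were called. In CL kidneys 8 of 9 points lie below 0 (Mlkl is at 0.05 with quantile normalisation) and those of Casp4 and Gsdmd are filled, and in UUO kidneys none is filled.

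The interaction asks whether the change upon obstruction differed between the genotypes. None of the 9 genes was called (limma, 2 of 9 at an unadjusted p under 0.05, against 1389 of 13243 genes), where 0.106% of all genes were called. The change was larger in Acot12-/- than in WT mice for 8 of 9 genes, with a median of 0.51 beside -0.01 over all genes. The largest values were those of Casp4, 1.04 on the log2(FPKM + 1) scale (SE 0.27, limma adjusted p = 0.134), and Gsdmd, 0.94 (SE 0.21, limma adjusted p = 0.0948). With the CL and UUO kidneys of a replicate number as a block, Gsdmd was called (0.94, SE 0.18, limma adjusted p = 0.033) and Casp4 was not (adjusted p = 0.0653). Without replicate 2 of Acot12-/- CL both were called, Casp4 at 1.27 (adjusted p = 0.00991) and Gsdmd at 0.94 (adjusted p = 0.0277). Without replicate 3 of that group Gsdmd was called (1.01, adjusted p = 0.0478). The shares of all genes called in these 3 fits are not given here. Scaled to equal totals, Gsdmd was at 0.74 (limma adjusted p = 0.467) and Casp4 at 0.81 (0.465). Quantile normalisation gave 0.77 (limma adjusted p = 0.252) for Gsdmd and 0.84 (0.283) for Casp4. Under either scaling, 0 of all genes tested were called in the interaction. The interaction uses the same CL libraries as the comparison of genotypes in CL kidneys, so that the values of both comparisons are not independent of each other. Its values were also positive for 13 of 13 macrophage (median 1.07), 4 of 4 neutrophil (1.86), 6 of 6 endothelial (1.12) and 6 of 6 fibroblast markers (1.02). They were positive for 3 of 6 lymphocyte (median 0.25) and 1 of 9 proximal tubule markers (-0.58). Of these markers only 1, endothelial, was called, and the part of these cells was not tested.

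The 10 genes stand within larger pathways, and the other members of these were taken from lists written from general knowledge. Of 32 other inflammasome and pyroptosis genes, 20 were tested, of which 10 (50%) were called higher and 2 (10%) lower in UUO than in CL kidneys of WT mice, against 23.6% and 23.9% of all genes. The counts were 11 (55.0%) higher and 3 (15%) lower in Acot12-/- mice, against 26.6% and 27.2% of all genes. Of the higher calls, 4 in each genotype were of genes that reached 1 FPKM in at most 1 CL library and entered the test through the UUO kidneys (Aim2, P2rx7, Gbp5 and Card9), so that these counts are a description only. The median differences were 0.64 and 1.12 on the log2(FPKM + 1) scale. Gbp2, an interferon-induced GTPase, rose by 2.23 in WT (SE 0.30, limma adjusted p = 0.000122) and 2.76 in Acot12-/- mice (SE 0.30, limma adjusted p = 1.81e-05). Its mean went from 8.12 to 43.7 FPKM and from 6.35 to 47.6 FPKM. The caspase Casp12 rose by 1.89 and 2.49, the channel Panx1 by 1.84 and 2.07, and the GTPase Gbp5 by 1.76 and 2.03 in WT and Acot12-/- mice (limma, adjusted p from 1.77e-07 to 4.3e-05). Il1b, which encodes the cytokine that Casp1 matures, was called in Acot12-/- mice (2.06, SE 0.39, limma adjusted p = 0.000879), with 0.305, 1.23 and 0.845 FPKM in CL and 3.93, 13.5 and 4.50 FPKM in UUO libraries. Il1b had a difference of 0.63 in WT mice (SE 0.39, limma adjusted p = 0.204), but was called there with equal totals (1.16, limma adjusted p = 0.0192). Il18, whose product Casp1 also matures and which was named after its values were seen, was not called in either genotype (-0.22 and 0.48). Nlrp6, a sensor of epithelia, fell from 18.0 to 6.49 FPKM in WT (-1.36, SE 0.27, limma adjusted p = 0.00163) and from 20.4 to 7.09 FPKM in Acot12-/- mice (-1.46, SE 0.27, limma adjusted p = 0.000742), the opposite of Nlrp3. Brcc3, a deubiquitinase that acts on Nlrp3, fell too, by 1.37 and by 0.98 on the log2 scale (limma, adjusted p = 3.52e-05 and 0.0002), and the call in Acot12-/- mice was lost with equal totals (-0.45, adjusted p = 0.0582).

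Of 45 other genes of the Toll-like receptor pathway, 39 were tested, of which 19 (48.7%) were called higher and 3 (7.69%) lower in UUO kidneys of WT and 21 (53.8%) higher and 4 (10.3%) lower in those of Acot12-/- mice. Of the higher calls, 7 in each genotype were of genes that reached 1 FPKM in at most 2 CL libraries and likewise entered through the UUO kidneys (Tlr1, Tlr7, Tlr13, Cd180, Ticam2, Irak3 and Tnfaip3). The list medians were 0.63 and 0.70 on the log2(FPKM + 1) scale. The NF-kappaB subunits Nfkb2 and Relb rose by 2.71 and 2.46 in WT and by 2.39 and 2.73 in Acot12-/- mice (limma, adjusted p from 1.72e-06 to 2.2e-05). Unc93b1, which carries Toll-like receptors to endosomes, rose by 1.98 and 2.72, and Tnfaip3, an inhibitor of NF-kappaB that is itself an NF-kappaB target, rose by 2.36 and 1.91. Ly86, the partner of the receptor homologue Cd180, rose by 1.93 in WT (SE 0.30, limma adjusted p = 0.00031) and by 3.47 in Acot12-/- mice (SE 0.30, limma adjusted p = 3.9e-06), from 9.41 to 39.0 and from 4.42 to 54.6 FPKM. Chuk, a kinase that activates NF-kappaB, fell from 64.4 to 23.6 FPKM in WT (-1.41, SE 0.20, limma adjusted p = 0.000141) and from 73.8 to 21.4 FPKM in Acot12-/- mice (-1.71, SE 0.20, limma adjusted p = 2.38e-05). Irak1, a kinase that Myd88 recruits, had differences of -0.56 in WT and -0.61 in Acot12-/- mice (limma, adjusted p = 0.00591 and 0.00282), which were 0.15 and -0.08 with equal totals. Its calls were lost there (adjusted p = 0.425 and 0.697) and with quantile normalisation (-0.26 and -0.23, adjusted p = 0.106 and 0.137). Sigirr, which dampens these receptors, fell by 0.97 in WT (SE 0.32, limma adjusted p = 0.0251, and 0.431 with equal totals, where the difference was -0.26) and was not called in Acot12-/- mice (-0.77, adjusted p = 0.0585). Ly96, the partner of Tlr4 in binding lipopolysaccharide, named after its values were seen, was not called in either genotype (0.05 and -0.11).

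All 27 other necroptosis genes were tested, and 7 were called higher and 3 lower in UUO kidneys of WT and 8 higher and 4 lower in those of Acot12-/- mice. The higher calls were 25.9% and 29.6% of the list, near the shares of all genes, and the lower calls were 11.1% and 14.8%. The medians were 0.11 and 0.03 on the log2(FPKM + 1) scale, close to those of all genes. Of the higher calls, 1 in each genotype was Tnf, which reached 1 FPKM in no CL library. Birc3 and Birc2, ubiquitin ligases that hold back cell death at the TNF receptor, rose by 2.42 and 1.29 in WT and by 2.5 and 1.29 in Acot12-/- mice (limma, adjusted p from 5.98e-07 to 0.000236). The TNF receptor gene Tnfrsf1a rose by 1.00 and 0.88, the ubiquitin ligase gene Rnf31 by 1.01 and 0.97, and the adaptor gene Traf2 by 0.76 and 1.02 (limma, adjusted p from 0.000423 to 0.0359). Birc2, Birc3, Rnf31 and Traf2 act in the survival arm of TNF signalling. Zbp1, a nucleic acid sensor that engages Ripk3, was called in Acot12-/- mice (2.07, SE 0.52, limma adjusted p = 0.00542) with 1.39, 7.23 and 6.21 FPKM in CL and 8.70, 35.3 and 28.5 FPKM in UUO libraries. Zbp1 had a difference of 0.98 in WT mice (SE 0.52, limma adjusted p = 0.141), but was called there with equal totals (1.64, limma adjusted p = 0.00902). Hsp90aa1, a chaperone of kinases such as Ripk3, had differences of -1.17 in WT and -0.64 in Acot12-/- mice (limma, adjusted p = 0.000179 and 0.00656), which were -0.43 and -0.09 with equal totals and -0.25 and 0.14 with quantile normalisation. The Ripk3 phosphatase gene Ppm1b had -0.62 and -0.75 (limma, adjusted p = 0.00668 and 0.00164), which were 0.10 and -0.21 with equal totals and -0.25 and -0.30 with quantile normalisation. The membrane repair gene Chmp3 had -0.64 and -0.55 (limma, adjusted p = 0.00473 and 0.00874), which were 0.08 and -0.02 with equal totals and -0.18 and -0.05 with quantile normalisation. None of these 3 genes was called under either scaling (limma, adjusted p from 0.0817 to 0.946).

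The share of calls that were higher depended on the scaling. Scaling all libraries to equal totals moved the median of all genes by 0.62 in WT and 0.45 in Acot12-/- mice. The calls then numbered 12 higher and 2 lower for the inflammasome list, 33 and 1 for the Toll-like receptor list and 19 and 0 for the necroptosis list in WT mice. The same counts were 13 and 2, 26 and 1, and 13 and 0 in Acot12-/- mice. For all genes, calls with equal totals numbered 7424 higher and 1048 lower in WT, and 6077 and 1551 in Acot12-/- mice. With quantile normalisation the calls of the 3 lists numbered 8 and 4, 19 and 2, and 9 and 0 in WT mice. In Acot12-/- mice they numbered 10 and 4, 22 and 5, and 10 and 2. Those of all genes numbered 3185 and 3143 in WT, and 3256 and 3796 in Acot12-/- mice. Relative to the shift of all genes under equal totals, Tlr2 was higher by 2.48 and 2.93, Casp4 by 1.89 and 2.87, Gsdmd by 1.59 and 2.5 and Pycard by 0.37 and 1.02 in WT and Acot12-/- mice. All 9 tested genes of the group had a positive difference in both genotypes there.

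Of the 3 lists, 0 genes were called between the genotypes in UUO kidneys (limma, with 2 of 20, 4 of 39 and 0 of 27 at an unadjusted p under 0.05 in the order above) and 0 in the interaction (5, 5 and 1). Of all 13243 genes tested, 312 were under that limit between the genotypes in UUO kidneys and 1389 in the interaction. In CL kidneys 3 of the 86 tested, 3.49%, were called lower in Acot12-/- mice, a share near the 3.36% of all genes, and none of the 3 was called with equal totals or quantile normalisation. Casp12 was at 1.52 FPKM in WT and 0.578 FPKM in Acot12-/- kidneys on average (-0.68, SE 0.12, limma adjusted p = 0.012). P2rx7, an ATP-gated channel upstream of Nlrp3, was at 0.924 and 0.216 FPKM (-0.66, SE 0.13, limma adjusted p = 0.0153), and Hsp90aa1 at 527 and 335 FPKM (-0.67, SE 0.17, limma adjusted p = 0.0437). Without replicate 2 of Acot12-/- CL, 16 were called in that comparison and 8 in the interaction, and without replicate 3 of that group 6 were called between the CL groups. Only 1 was called there without replicate 1 of WT CL or of Acot12-/- CL, and 0 without replicate 3 of WT CL. The shares of all genes called in these smaller fits are not given here either.

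**Figure D5:**
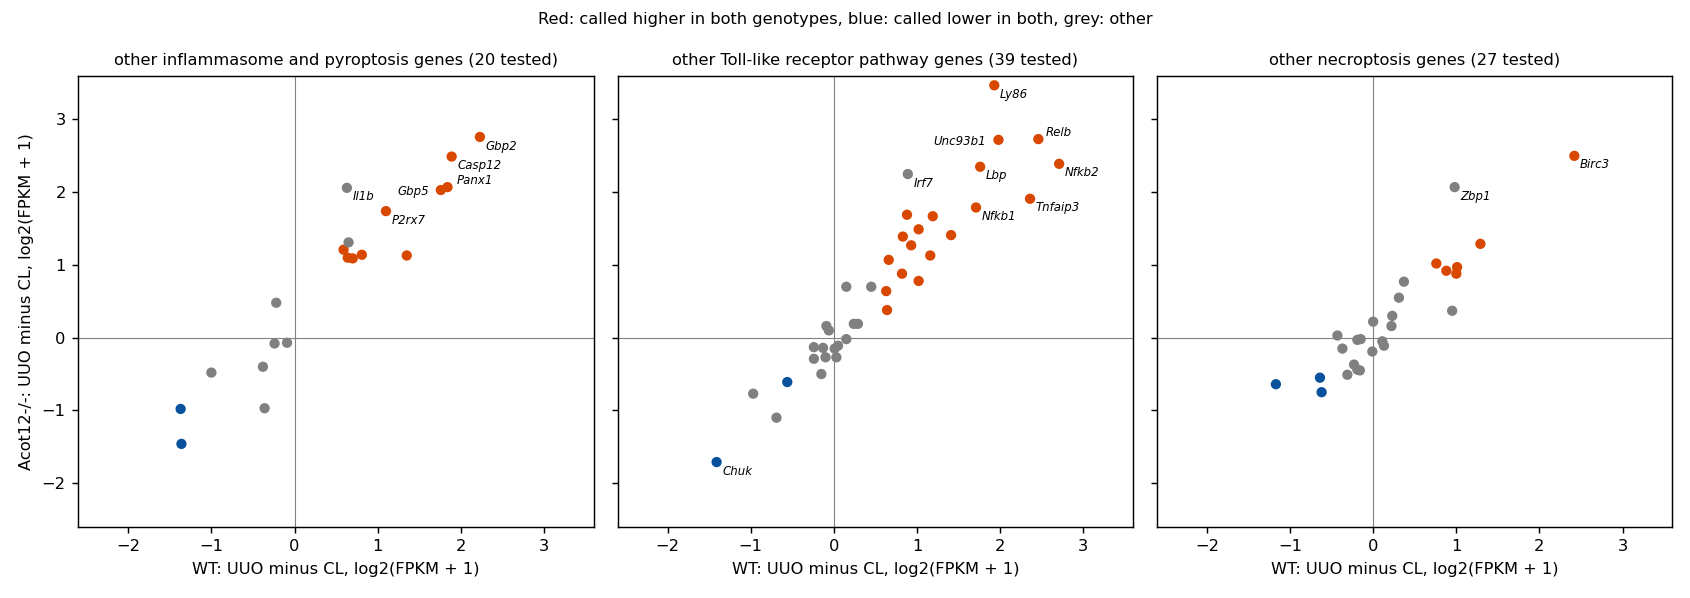
Difference between UUO and CL kidneys on the log2(FPKM + 1) scale in WT (x axes) and Acot12-/- mice (y axes) for the tested genes of the 3 other lists, 1 point per gene; red genes were called higher and blue genes lower in both genotypes. The inflammasome and Toll-like receptor panels hold many red points up to Gbp2 and Ly86, and in the necroptosis panel most points lie near 0 with Birc3 far above.

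Across the 12 libraries each of the 10 genes had closely similar genes among 12700 searched, measured by Pearson correlation of log2(FPKM + 1). The points share the 12 libraries, the split between UUO and CL kidneys and the cell content of the cortex. Casp4 was most like Ccr2, a chemokine receptor of monocytes (r = 0.997, rho = 0.986), and Fyb, an adaptor of leukocytes (r = 0.993, rho = 0.888). Casp1 was most like Adgre1, which encodes the macrophage marker F4/80 (r = 0.982, rho = 0.965). Gsdmd was most like the myeloid lectin gene Clec4a2 (r = 0.993, rho = 0.965), Nlrp3 like the leukocyte adaptor gene Lcp2 (r = 0.993, rho = 0.909), and Mlkl like the interferon-induced Gbp3 (r = 0.987, rho = 0.972). Tlr2 was most like Dock10 (r = 0.997, rho = 0.979), Tlr4 like Tbc1d8 (r = 0.994, rho = 0.972), Ripk3 like Soga1 (r = 0.987, rho = 0.986), Myd88 like the actin regulator Cfl1 (r = 0.981, rho = 0.937) and Pycard like Fxyd5 (r = 0.970, rho = 0.986). The second most similar genes were Jazf1 for Casp1 (r = 0.979), Tifab for Gsdmd (0.992), AF251705 for Nlrp3 (0.992) and Cep170 for Mlkl (0.978). They were Sytl2 for Tlr2 (0.996), Fyb for Tlr4 (0.991), Pip4k2b for Ripk3 (0.986), Hmces for Myd88 (0.969) and Ndn for Pycard (0.962). The values of r of the most similar genes were highest for Casp4 and Tlr2, which also changed most, and lowest for Pycard.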

How the data were processed

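RNA-seq of 12 kidney cortex libraries (4 groups of 3) was analysed from 1 table per library. The authors had RNA sequenced from directional NEBNext Ultra II libraries on an Illumina instrument, and a service provider trimmed, mapped and normalised the reads. The submitters' processing notes name mm10 and edgeR; the aligner, the counter and the use of strand are not given in the sources used here. The deposited values are FPKM, a unit taken from the values themselves because the tables do not name it: they are not whole, and 65.0 to 69.1% of low values fell within 0.05 of a whole number of fragments once divided by a step that depends on transcript length. That step gave the library sizes, 12480000 to 22950000, which may hold a scaling between libraries. On a transcript of 1 kb, 1 fragment is worth 0.0436 to 0.0801 FPKM. FPKM carries no counts, so no counting interval is given.

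Genes with at least 1 FPKM in at least 3 libraries were tested, leaving out 28 genes listed at 0 beside at least 10 FPKM in the same group. log2(FPKM + 1) values were fitted in limma 3.58.1 (R 4.3.3) with all 4 groups, a variance trend and Benjamini-Hochberg adjustment over 13243 genes; adjusted p under 0.05 was called. Fold changes on this scale understate the change of low genes. The fit was tested on simulated data. Other values were computed with pandas 2.3.3 and numpy 2.4.6. The labels do not identify the animals, so p-values measure the spread between these libraries only.

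The genes, gene lists and marker lists were chosen with earlier results of these data known. Named genes of each list were, in each UUO comparison and among called genes whose libraries did not overlap, the 4 that rose most and the 2 that fell most, every called gene in the genotype comparisons, and, for each of the 10 genes, the most correlated genes of at least 1 FPKM on average. Replicate numbers come from the labels. The residuals of CL and UUO libraries with the same number correlated at 0.134, 0.364 and 0.335 in WT and 0.322, 0.186 and 0.318 in Acot12-/- mice. Those of libraries with different numbers correlated at -0.363 to 0.139. Residuals are centred within each group, so higher values for the same number lower those for different numbers, and the contrast is partly built in. The numbers were taken to pair the libraries, which the labels do not state. A fit with the numbers as a block was an alternative, as were another pseudocount (0.1 FPKM), no filter, other scalings, fits of only the groups compared and leaving out each library. Coordinates are GRCm38 (GENCODE), and promoters are from RefSeq (GRCm38.p6). Gsdme and Irgb10 were found under Dfna5 and Gm12250. Ly6g was not analysed here.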

Additional observations from a re-analysis of the deposited data

How the results depend on the processing

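The 8 and 9 of the 10 genes called in UUO against CL kidneys of WT and Acot12-/- mice, and the 0 called between the genotypes in UUO kidneys, stayed within 1.5 times under every alternative run. The 2 genes called between the genotypes in CL kidneys became 4 with a pseudocount of 0.1 FPKM, 1 with no filter, and 0 with equal totals, quantile normalisation, a fit of only the groups compared or a minimum fold change of 2, and 0 to 5 when a library was left out. There Casp4 lost its call in 14 and Gsdmd in 7 of 21 alternatives (adjusted p of 0.00198 to 0.178 and 0.0119 to 0.166). The 0 genes called in the interaction became 1, Gsdmd, with the replicate block (correlation 0.208), and 0 to 2 without a library. The count stayed at 0 with equal totals and quantile normalisation. The block changed no other call of the 10 genes.

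Among the other genes, the 14 inflammasome genes called in Acot12-/- mice became 22 with no filter. The 22 Toll-like receptor genes called in WT became 34 with equal totals and 13 with a minimum fold change of 2, and the 10 necroptosis genes 19 and 5. Of all 13243 genes tested, the WT calls with equal totals went from 3129 to 7424 higher and from 3161 to 1048 lower. The 12 necroptosis genes called in Acot12-/- mice became 7 in a fit of only those groups and 4 with the minimum fold change. The 3 list genes called between CL kidneys became 0 with equal totals, quantile normalisation, only those groups or the minimum fold change. They became 0 to 16 when a library was left out, and the 0 in the interaction became 0 to 8. For fits without a filter, of only the groups compared, with the minimum fold change or without a library, the shares of all genes are not given here. Those counts are a description only.

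Differences near 0 changed sign. Between the genotypes, Tlr4 in UUO kidneys was -0.08 with equal totals and Mlkl in CL kidneys 0.05 with quantile normalisation. When a library was left out, the genotype difference in UUO kidneys ran from -0.23 to 0.05 for Tlr2, -0.01 to 0.10 for Tlr4 and -0.14 to 0.05 for Myd88, that in CL kidneys from -0.14 to 0.41 for Myd88 and -0.53 to 0.14 for Mlkl, and the interaction of Myd88 from -0.44 to 0.10. Beyond fewer genes or libraries tested, the cause was not tested. Few fragments limit Nlrp3 most in the CL libraries, with at most 11 estimated in any of them from library sizes that may hold a scaling.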
